A study of Mus musculus with 15 samples.

Results

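Organoids of the mouse uterine epithelium in which both copies of *Smad2* and *Smad3* had been targeted were compared with control organoids while every culture received A83-01, a small molecule that blocks the kinases of the receptors ALK4, ALK5 and ALK7. The comparison thus asked what loss of the transcription factors adds when their upstream receptors are already inhibited. It held 4 *Smad2/3* cKO + A83-01 samples and 4 control + A83-01 samples, 8 of the 15 in the series, and the genes with a mean normalized count of at least 10 over these 8 were kept, which were 12915 of the 16729 in the matrix. Mice of both genotypes carried *Smad2* and *Smad3* alleles flanked by loxP sites, and the *Smad2/3* cKO mice also carried a Cre driven by *Ltf*, the gene of lactoferrin, which is active in the uterine epithelium and which estradiol given at weaning had switched on early. Mice were adults of 6 to 8 weeks where no other age was stated. All organoids grew in Matrigel in a medium with WNT3a, R-spondin, EGF, FGF10 and HGF and with Noggin, an antagonist of BMP ligands. The other 7 samples were control + vehicle (n = 3) and *Smad2/3* cKO without inhibitor (n = 4), and they serve as the same genotype comparison in the absence of the drug.

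TGFβ and activin ligands bind receptor pairs whose type I member phosphorylates SMAD2 and SMAD3, which enter the nucleus with SMAD4 and regulate transcription. BMP ligands use other type I receptors and SMAD1, SMAD5 and SMAD9. A83-01 acts at the receptor and the deletion acts on the SMADs themselves, so each is meant to silence the same branch at a different step. In the uterus this branch is known for restraining epithelial growth and for its part in receptivity.

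Loss of *Smad2/3* in the presence of A83-01 changed few genes past the thresholds. Only *Otop1*, *Ncald* and *Nlrp6* rose and no gene fell at an adjusted p below 0.01 with a change of more than 1.4-fold (limma, Benjamini-Hochberg over all 12915 genes), which is 0.0232% of the genes tested. *Lpo* joined them at an adjusted p below 0.05, making 4 genes or 0.031%. Before adjustment, 720 genes were higher and 509 lower at p below 0.05, together 9.52% of the genes tested. The corresponding comparison without the drug called 970 of 13149 genes (7.38%), of which 536 were higher (4.08%) and 434 lower (3.3%). Before adjustment, 33.7% of the genes tested there had p below 0.05. The number of calls with A83-01 lay between 0 and 4 when single libraries were left out, and it was 0 without control + A83-01 replicate 2 or 4 or without *Smad2/3* cKO + A83-01 replicate 1, 2 or 3. The samples are organoids of different mice, so the p-values measure the spread between mice.

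Depth was similar across the libraries, with 1 exception. The sum of the normalized counts lay between 21572721 and 24423127. The spacing of low values put the reads on genes at about 18.4 to 23.0 M in 7 libraries and at 43.1 M in *Smad2/3* cKO + A83-01 replicate 3. The median SD of log2 values within a group was 0.384 in control + A83-01 and 0.302 in *Smad2/3* cKO + A83-01. For the same genes it was 0.281 in control + vehicle and 0.287 in *Smad2/3* cKO without inhibitor. The part of this spread in the number of calls was not tested. Correlations of log2 values ran from 0.910 to 0.960 within control + A83-01, from 0.936 to 0.970 within *Smad2/3* cKO + A83-01 and from 0.891 to 0.962 between them, so the ranges within and between genotypes overlapped.

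Control + A83-01 replicates 1 and 2 stood apart from the other libraries. On the first principal component, which held 33.7% of the variance, they lay at −89.7 and −41.0, against 1.72 to 41.6 for the other 6. Mice are identified throughout by genotype and the number in the label, and by these the same mice also gave control + vehicle replicates 1 and 2. In 14 genes these 4 libraries lay at least 10-fold above (8 genes) or below (6 genes) all 11 other libraries of the series. *Chd9*, a chromatin remodeler, had 24311 to 43954 normalized counts in the 4 libraries and 42.4 to 348 in the other 11. *Rps3a3*, a copy of a ribosomal protein gene, had 0 to 6.56 in the 4 and 1982 to 3420 in the other 11, and the pseudogene *Gm10359* had 6077 to 18439 in the 4 and was listed at 0 in the rest. Several of these genes are pseudogenes or copies of ribosomal protein genes, for which the assignment of reads is uncertain. Among the 11 is a *Smad2/3* cKO library without inhibitor whose label carries the number of one of these mice. Whether that label is an error could not be checked. What sets these libraries apart was not tested, and the calls are also given with control replicates 3 and 4 alone, as are the gene lists and named genes that moved most.

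**Figure D1:**
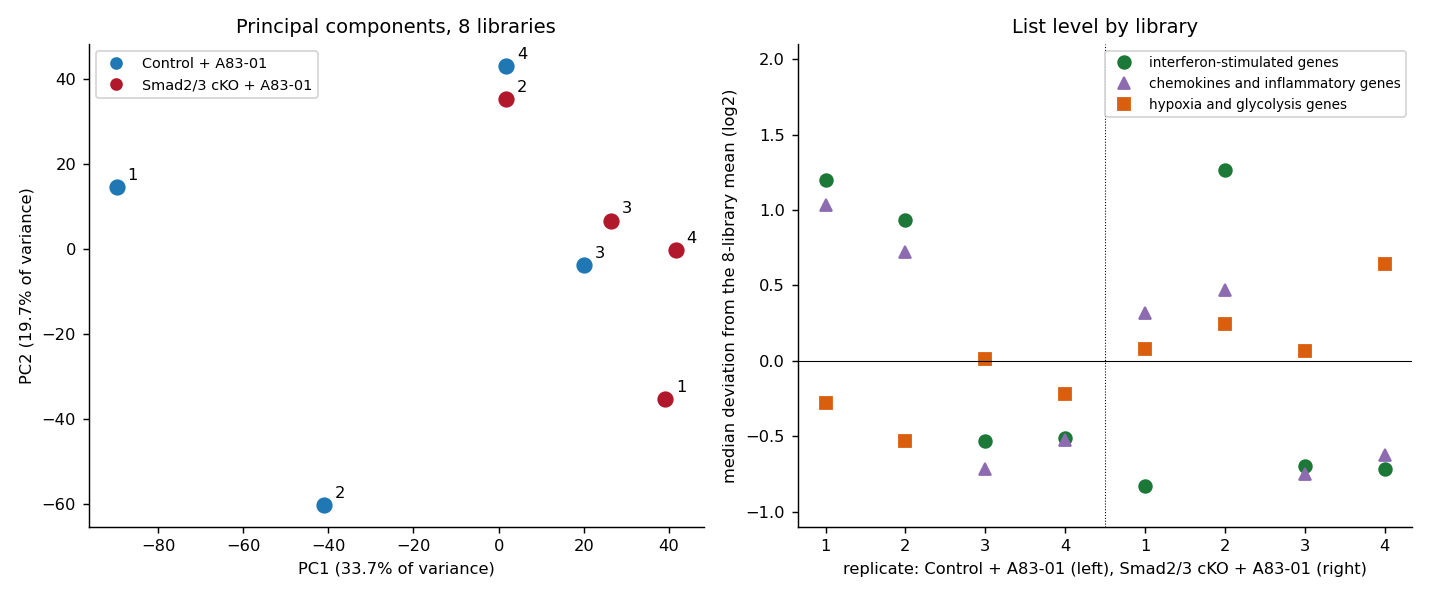
Left, the 8 libraries with A83-01 on the first and second principal components of log2 values, numbered by replicate and colored by genotype. Right, for each library the median over the genes of 3 lists of the deviation from the gene's mean over the 8 libraries (log2). Control + A83-01 replicates 1 and 2 lie apart on the first component, at −89.7 and −41.0, and interferon-stimulated genes are high in these 2 and in *Smad2/3* cKO + A83-01 replicate 2.

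With control + A83-01 replicates 3 and 4 as the only controls, no gene passed at an adjusted p below 0.01, 13 passed at 0.05 and 1093 had an unadjusted p below 0.05. The 4 leading genes were among those with an adjusted p below 0.05 and kept their size. *Otop1* had a log2 fold change of 3.01 (adjusted p = 0.0158), *Nlrp6* of 2.72 (adjusted p = 0.0162), *Ncald* of 1.84 (adjusted p = 0.0214) and *Lpo* of 1.78 (adjusted p = 0.0237, all limma). With replicates 1 and 2 as the only controls 39 genes were called, of which 11 belonged to the 14 genes above and 21 lay past the same fold also against replicates 3 and 4. The mice of all 4 *Smad2/3* cKO + A83-01 samples were numbered below 390 and those of control replicates 3 and 4 above it. With this number series as a covariate the genotype effect again rests on control replicates 1 and 2. Replicates 3 and 4 then add only to the estimate of spread, so this is no separate check. That fit called 72 genes (56 higher and 16 lower), 13 of them in the set of 14. Against replicates 3 and 4 alone, 68 of the 72 were tested, 59 had the same sign and 36 lay past the same fold.

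The transcripts of the targeted genes did not report the deletion. *Smad2* (ENSMUSG00000024563) had 970, 1062, 984 and 912 normalized counts in control + A83-01 and 813, 1211, 854 and 804 in *Smad2/3* cKO + A83-01 organoids, a log2 fold change of −0.11 (adjusted p = 0.883, limma). *Smad3* (ENSMUSG00000032402) had 669, 1556, 2003 and 1265 against 1659, 797, 1689 and 1648, a log2 fold change of 0.12 (adjusted p = 0.946) that turned to −0.20 against control replicates 3 and 4. Both groups overlapped in both genes. The values cover whole genes, and the deleted exons could not be told from the rest, so these counts do not check the genotype labels. *Ltf* itself, the secreted iron-binding protein whose gene carries Cre, had 390831, 306626, 67933 and 77406 in the controls and 97582, 84975, 101268 and 54501 in *Smad2/3* cKO + A83-01. The log2 fold change was −0.95 (adjusted p = 0.661), and the high controls were the 2 libraries that stood apart.

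*Otop1*, which encodes a proton channel, showed the clearest separation. It had 69.9, 57.1, 77.4 and 59.2 normalized counts in control + A83-01 and 573, 644, 671 and 380 in *Smad2/3* cKO + A83-01 organoids. Every *Smad2/3* cKO sample lay more than 4-fold above every control. The group means were 65.9 ± 9.47 and 567 ± 131 (SD, n = 4 each), and the log2 fold change (with its standard error, SE) was 3.06 (SE 0.25, adjusted p = 0.00285, limma). Without the inhibitor the gene had 42.6, 29.2 and 81.0 in control organoids, and the *Smad2/3* cKO samples had 233, 721, 778 and 271 (log2 fold change 3.19, adjusted p = 0.00418). The difference between the genotype effects was −0.13 on the log2 scale (SE 0.59, adjusted p = 0.957).

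*Nlrp6* encodes a cytosolic sensor of the NOD-like receptor family that is known from the intestinal epithelium. Its controls had 116, 255, 341 and 162 normalized counts with A83-01, and the *Smad2/3* cKO samples had 1566, 1567, 1700 and 1415. The knockout samples were close together (1562 ± 116, SD, n = 4) and all above the controls (219 ± 100.1). The log2 fold change was 2.95 (SE 0.30, adjusted p = 0.00916). Without the inhibitor the means were 132 ± 80.1 (n = 3) and 1369 ± 778 (n = 4), a log2 fold change of 3.44 (adjusted p = 0.00607), and the effects differed by −0.50 (SE 0.73, adjusted p = 0.841).

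*Ncald*, which encodes the neuronal calcium sensor neurocalcin delta, rose in both settings but by unequal amounts. It had 528, 502, 633 and 653 normalized counts in control + A83-01 and 2631, 2521, 2398 and 1750 in *Smad2/3* cKO + A83-01 organoids, a log2 fold change of 2.00 (SE 0.17, adjusted p = 0.00285). Controls without A83-01 had 162, 120 and 122, lower than any control with it, while *Smad2/3* cKO organoids without it had 1210, 1859, 1700 and 1328. The genotype effect without the drug was therefore 3.48 (adjusted p = 5.99e-05), and the difference between the effects was −1.49 (SE 0.26, adjusted p = 0.00952). The 4 groups thus formed a series in which no control sample reached a *Smad2/3* cKO sample.

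*Lpo*, the secreted lactoperoxidase, was the most abundant of the 4. It had 2903, 1768, 2294 and 2251 normalized counts in control + A83-01 and 9748, 6596, 8809 and 6558 in *Smad2/3* cKO + A83-01 organoids. The log2 fold change was 1.78 (SE 0.19, adjusted p = 0.0109), just outside the threshold. Without the drug the log2 fold change was 2.00 (adjusted p = 0.0352, limma), also outside the threshold. The groups overlapped there, since control + vehicle replicate 3 had 3863 and *Smad2/3* cKO replicate 1 had 3022. The difference between the genotype effects was −0.22 (SE 0.62, adjusted p = 0.926).

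**Figure D2:**
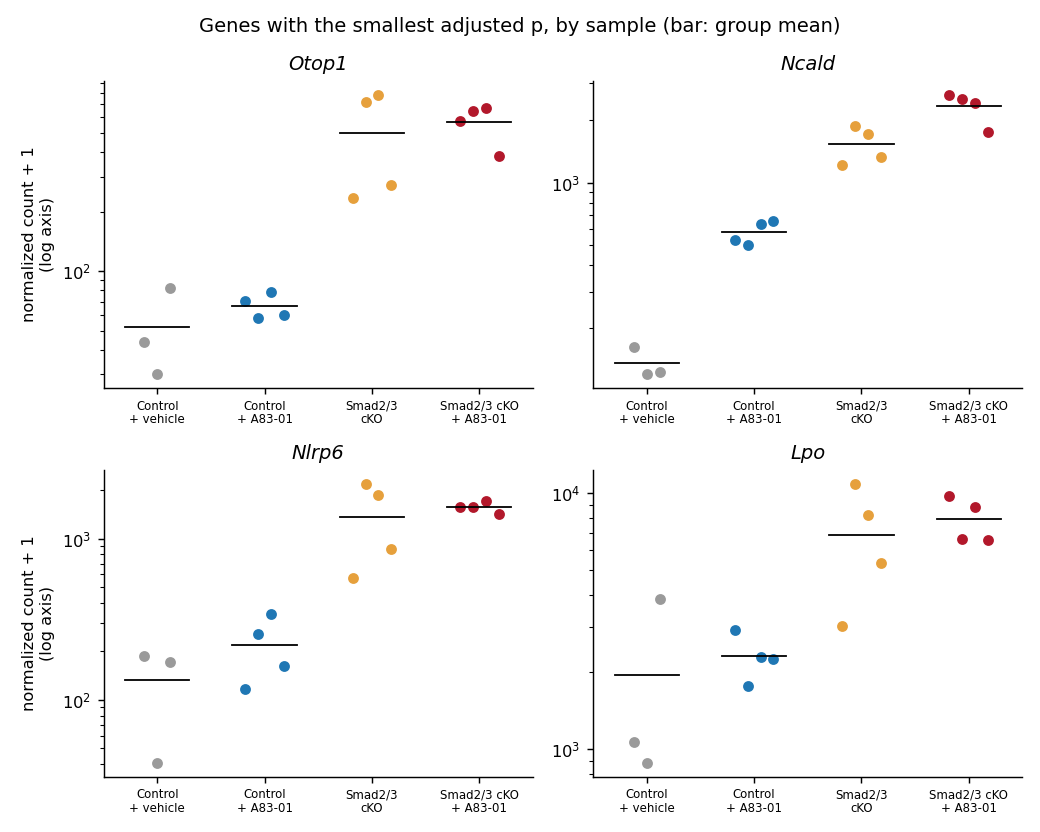
Normalized counts plus 1 of *Otop1*, *Ncald*, *Nlrp6* and *Lpo* on a log axis in every sample of the 4 groups. Points are samples (n = 3 in control + vehicle, n = 4 in the others) and bars are group means. With A83-01 the 2 genotypes do not overlap in any of the 4 genes, and *Ncald* is higher in controls with A83-01 (502 to 653) than in controls with vehicle (120 to 162).

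The promoter windows of these 4 genes are shown where available, because all 4 moved in one direction and SMAD complexes bind DNA at short elements. For the called gene *Ncald* no window was available. RefSeq (GRCm38.p6) gave a window from 250 bases before to 50 after the start for 3 of the 4 genes, at chr5:38277154-38277453 for *Otop1* (plus strand), chr7:140920652-140920951 for *Nlrp6* (plus strand) and chr11:87826065-87826364 for *Lpo* (minus strand). Capitals mark GTCTG, the core letters of the SMAD binding element, or its reverse complement CAGAC, and GGCGCC, a GC-rich SMAD element whose reverse complement is the same. They are printed 5′ to 3′ on the strand of the gene.
Otop1 promoter: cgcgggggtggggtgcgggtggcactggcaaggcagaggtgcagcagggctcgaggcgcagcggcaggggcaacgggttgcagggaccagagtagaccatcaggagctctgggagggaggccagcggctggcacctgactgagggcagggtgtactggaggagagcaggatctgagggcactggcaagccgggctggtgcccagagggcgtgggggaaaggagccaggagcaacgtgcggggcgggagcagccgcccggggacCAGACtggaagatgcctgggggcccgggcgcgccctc
Nlrp6 promoter: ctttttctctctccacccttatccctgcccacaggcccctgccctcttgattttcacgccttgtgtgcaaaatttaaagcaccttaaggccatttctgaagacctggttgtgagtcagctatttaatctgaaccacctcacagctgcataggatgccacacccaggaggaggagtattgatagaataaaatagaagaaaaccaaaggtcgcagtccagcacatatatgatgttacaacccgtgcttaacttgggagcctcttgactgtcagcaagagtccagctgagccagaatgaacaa
Lpo promoter: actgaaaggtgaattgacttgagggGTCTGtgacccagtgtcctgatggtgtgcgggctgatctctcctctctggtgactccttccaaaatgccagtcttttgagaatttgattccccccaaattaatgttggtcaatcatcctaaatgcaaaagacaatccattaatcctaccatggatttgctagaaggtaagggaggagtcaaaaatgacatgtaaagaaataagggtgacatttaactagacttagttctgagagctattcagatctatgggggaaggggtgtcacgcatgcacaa
GTCTG or CAGAC occurred 1 time in the *Otop1* window, 1 time in the *Lpo* window and 0 times in the *Nlrp6* window, and GGCGCC in none of the 3. Among 32851 RefSeq promoter windows of the same length, 49.6% held GTCTG in either orientation and 11.9% held GGCGCC. A match is a description of the letters only.

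A wider list at an adjusted p below 0.1 held 62 genes (0.48% of those tested), 47 higher and 15 lower in *Smad2/3* cKO + A83-01, and in all 62 the groups of samples did not overlap. Apart from *Otop1*, *Ncald* and *Nlrp6*, which this list includes, these genes did not pass the threshold and their values are given as a description. Samples of the genotypes did not overlap, with *Smad2/3* cKO higher, in 437 genes (3.38%), and with *Smad2/3* cKO lower in 353 (2.73%). Of the 62 genes, 61 reached a mean of 10 without control replicates 1 and 2, and all 61 lay past the same fold against control replicates 3 and 4, which had also taken part in choosing them. The median log2 fold change of the 47 was 2.22 with A83-01 and 2.78 without it, and that of the 15 was −1.72 and −2.50. The mice of control + A83-01 replicates 1, 2 and 3 and of *Smad2/3* cKO + A83-01 replicate 1 gave libraries to both comparisons. The genes described in the next paragraphs from this list were chosen after their values were seen, except those named for a gene list.

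Several of the 47 higher genes are given as examples, with no claim on a theme. *Kng1* and *Kng2*, which encode kininogens, precursors of kinins, had means of 1784 ± 625 and 1078 ± 426 in control + A83-01 and of 4277 ± 676 and 4378 ± 1256 in *Smad2/3* cKO + A83-01 (adjusted p = 0.0927 and 0.0764). *Hexa*, which encodes a lysosomal enzyme, had 1425, 1153, 959 and 1123 against 2624, 2588, 1953 and 2280 (log2 fold change 1.02, adjusted p = 0.0764). *Wfdc18*, a secreted whey acidic protein family member, had 75.9, 50.6, 187 and 42.0 in the controls and 816, 3436, 1111 and 364 in *Smad2/3* cKO + A83-01 (log2 fold change 3.78, adjusted p = 0.0927). The kallikrein genes *Klk1* and *Klk1b* were counted as a family after their values were seen, and some are among the 47, so the counts are no test. Of these genes 9 were tested, none was called and all 9 had a positive log2 fold change. The groups did not overlap in 5, with *Smad2/3* cKO higher, beside 3.38% of all genes tested. Their sequences are near-identical and reads may be shared between them, so single members are uncertain. *Klk1b21* had 599, 335, 1071 and 1455 in the controls and 3444, 2952, 3302 and 4446 in the *Smad2/3* cKO samples (log2 fold change 2.22, adjusted p = 0.0927).

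Further examples among the 47 were a kinase, a receptor, an enzyme and an actin bundler. *Sgk1*, a kinase that regulates epithelial sodium channels, had 3456, 4494, 5000 and 4051 in control + A83-01 and 10488, 7245, 7735 and 9192 in *Smad2/3* cKO + A83-01 (log2 fold change 1.03, adjusted p = 0.0764). *Tshr*, the thyrotropin receptor, had 1380, 1305, 1867 and 2451 against 5410, 4114, 3458 and 4572 (log2 fold change 1.35, adjusted p = 0.0764). In control + vehicle it had only 37.0 to 47.1, and the genotype effect with A83-01 less that with vehicle was −5.20 (adjusted p = 9.92e-07). *Cyp17a1*, the steroid 17α-hydroxylase, was listed at 0 in all 3 control + vehicle samples, at 17.6 to 68.2 in control + A83-01 and at 105 to 215 in *Smad2/3* cKO + A83-01 (log2 fold change with A83-01 2.32, adjusted p = 0.0943). *Espn*, an actin bundler of microvilli, had 32.6, 16.4, 70.2 and 54.0 against 239, 587, 236 and 448 (log2 fold change 3.17, adjusted p = 0.0764).

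Examples of the 15 lower genes follow. *Pls3*, which encodes the actin-bundling protein plastin 3, had 2267, 2926, 3080 and 2451 in control + A83-01 and 1023, 1434, 1461 and 1172 in *Smad2/3* cKO + A83-01 (log2 fold change −1.08, adjusted p = 0.0764). *Swap70*, a signaling protein that binds actin, had 1581, 2057, 1280 and 1185 against 726, 688, 703 and 575 (log2 fold change −1.15, adjusted p = 0.0779). *Scin*, the actin-severing protein scinderin, had 3673, 2837, 3556 and 3579 against 1577, 2195, 2087 and 1658 (log2 fold change −0.87, adjusted p = 0.0927). The volume-regulated anion channel subunit *Lrrc8c* had 200, 82.8, 72.7 and 109 in the controls and 4.34, 19.6, 9.97 and 4.07 in the *Smad2/3* cKO samples (log2 fold change −3.61, adjusted p = 0.0764). *Cpe*, which encodes carboxypeptidase E, had a mean of 917 ± 481 in control + A83-01 and of 178 ± 51.6 in *Smad2/3* cKO + A83-01, beside 3329 ± 238 (n = 3) and 250 ± 49.5 (n = 4) in the same genotypes without it. *Bcl2l15*, a relative of the BCL2 apoptosis regulators, had 1739, 1404, 715 and 749 against 68.1, 254, 167 and 97.1 (log2 fold change −3.04, adjusted p = 0.0764).

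Members of the TGFβ pathway were then followed by their roles. Of 10 genes for TGFβ and activin ligands and binding proteins tested, none was called with A83-01 (median 0.11), and 2 were called higher without the drug (median −0.56), beside 4.08% of all genes tested there. In 2 the A83-01 groups did not overlap with *Smad2/3* cKO higher, beside 3.38% of all genes tested, and both were ligands. *Tgfb2* had 9135, 14802, 17364 and 13948 in control + A83-01 and 41707, 23291, 22364 and 30520 in *Smad2/3* cKO + A83-01 (log2 fold change 1.08, adjusted p = 0.161), and *Tgfb3* had 1589, 2331, 2547 and 2805 against 4096, 3851, 4073 and 4995 (log2 fold change 0.90, adjusted p = 0.113). In control + vehicle the mean of *Tgfb2* was 197 ± 59.5 (n = 3). Its genotype effect without the drug was 6.86, and the difference between the effects was −5.77 (adjusted p = 9.81e-06). The third gene by p, *Fstl3*, an antagonist of activins, had a log2 fold change of 0.59 (adjusted p = 0.555).

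Of 6 receptor genes and 16 genes for SMADs and their regulators tested, none was called with A83-01, and the medians of their log2 fold changes were 0.16 and −0.07, beside 0.01 over all genes. The type II receptor gene *Tgfbr2* had a log2 fold change of −0.48 (adjusted p = 0.469), and the activin receptor genes *Acvr2b* and *Acvr2a* of 0.40 and 0.25 (adjusted p = 0.748 and 0.84). *Pmepa1*, a feedback inhibitor that binds SMAD2 and SMAD3, had 60.1, 42.1, 28.4 and 55.5 in control + A83-01 and 2.46, 3.86, 5.20 and 17.2 in *Smad2/3* cKO + A83-01. The groups did not overlap, but the test did not pass (log2 fold change −2.79, adjusted p = 0.123), and 3 of the 4 *Smad2/3* cKO values are 5.20 or lower. The corepressor genes *Tgif1* and *Skil* showed log2 differences of −0.64 and −0.95 (adjusted p = 0.338 and 0.589).

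Among 26 SMAD2/3 response genes tested, none was called with A83-01, while 9 were called lower without it, beside 3.3% of all genes tested there. With A83-01 9 were positive and 17 negative, and the median log2 fold change was −0.26, against −1.16 without the drug. The groups did not overlap in 2 genes with *Smad2/3* cKO lower and in 1 with it higher, beside 2.73% and 3.38% of all genes. The lower ones were *Pmepa1* and *Ccn2*. The higher one was *Tgfbi*, a matrix protein induced by TGFβ, named after its values were seen, with 0, 6.52, 17.04 and 15.1 against 20.9, 152, 35.1 and 65.0 (log2 fold change 2.96, adjusted p = 0.353). *Ccn2*, the matricellular growth factor and a much-used readout of TGFβ, had 2632, 3234, 2988 and 1998 normalized counts in control + A83-01 and 1220, 1276, 1520 and 946 in *Smad2/3* cKO + A83-01 organoids. No sample of one group reached the other (log2 fold change −1.13, standard error 0.20, adjusted p = 0.0927). Its means without the drug were 18568 ± 6820 in control (n = 3) and 2568 ± 1421 in *Smad2/3* cKO organoids (n = 4), beside 2713 ± 537 and 1240.3 ± 236 with A83-01 (n = 4 each). *Ccn1*, a related matricellular protein, had a log2 fold change of −0.87 (adjusted p = 0.338) and its groups overlapped.

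The BMP branch was measured next. Of 15 genes for BMP ligands, receptors and antagonists and 14 BMP target genes tested, none was called, and the medians of the log2 fold changes were 0.28 and 0.47. Without the drug the medians were 0.10 and −0.26, with 2 of 14 ligand, receptor and antagonist genes called higher and, of 13 target genes, 3 called higher and 1 lower, beside 4.08% and 3.3% of all genes tested there. With A83-01 the groups did not overlap, with *Smad2/3* cKO higher, in 4 genes of each list, beside 3.38% of all genes tested. Among them was *Bambi*, a decoy receptor held by both lists, with 45.9, 42.0, 53.2 and 67.2 against 91.5, 113, 90.7 and 89.8 (log2 fold change 0.89, adjusted p = 0.338). The BMP-binding proteins *Bmper* and *Chrd* showed log2 differences of 1.50 and 1.01 (adjusted p = 0.198 and 0.382). *Hey1*, a transcriptional repressor in both the BMP target and the Notch lists, had 58.9, 91.6, 54.8 and 57.2 against 434, 230, 301 and 184, a log2 fold change of 2.07 (adjusted p = 0.0764).

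The *Id* genes encode inhibitors of DNA binding and are classical BMP targets. *Id4* had 258, 239, 134 and 128 in control + A83-01 and 660, 662, 334 and 416 in *Smad2/3* cKO + A83-01, groups that did not overlap (log2 fold change 1.45, standard error 0.32, adjusted p = 0.146). Without the drug its genotype effect was 5.47, and the difference between the effects was −4.02 (adjusted p = 0.00328). *Id2* had 466, 544, 508 and 501 against 735, 574, 619 and 1341 (log2 fold change 0.61, adjusted p = 0.497). The groups of *Id1* and *Id3* overlapped, with log2 differences of 0.34 and 0.64 (adjusted p = 0.827 and 0.715).

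None of the 26 retinoid genes tested was called with A83-01, against 7 higher and 1 lower without it (4.08% and 3.3% of all genes), and the median log2 fold change was 0.28 with A83-01. *Lrat*, which esterifies retinol for storage, had 4356, 6878, 9918 and 8415 in control + A83-01 and 12916, 10489, 8685 and 13546 in *Smad2/3* cKO + A83-01 (log2 fold change 0.67, adjusted p = 0.433), and only 561 to 1202 in control + vehicle. *Cyp26a1*, which breaks down retinoic acid, had a log2 fold change of 0.75 (adjusted p = 0.569), and *Aldh1a2*, which makes it, of 0.18 (adjusted p = 0.933). For all 3 genes the genotype effect was smaller with A83-01 than with vehicle, with differences of −2.85 for *Lrat*, −3.68 for *Cyp26a1* and −3.43 for *Aldh1a2* (adjusted p = 0.0025, 0.0113 and 0.0217). *Rbp4*, *Aldh1a1* and *Aldh1a3* showed log2 differences of 1.01, 0.92 and −0.52 (adjusted p = 0.569, 0.866 and 0.844). That of *Aldh1a1* turned to −1.40 with control replicates 1 and 2 as the only controls. *Adh1*, an alcohol dehydrogenase that can oxidize retinol, had 23.3, 22.3, 45.0 and 51.7 against 157, 1222, 94.0 and 195 (log2 fold change 2.84, adjusted p = 0.197), and *Rdh13*, a retinol dehydrogenase, a log2 fold change of 0.49 (adjusted p = 0.481).

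WNT genes showed 21 positive and 21 negative log2 fold changes among 42 tested, with a median of 0.00 and no call, while 6 were lower and 1 higher without the drug (3.3% and 4.08% of all genes). The receptor gene *Fzd10* had 22.4, 20.5, 21.6 and 8.25 in control + A83-01 and 1.10, 0, 5.37 and 3.13 in *Smad2/3* cKO + A83-01, groups that did not overlap at a very low level (log2 fold change −2.72, adjusted p = 0.256). In control + vehicle it had 164 to 297. *Fzd1*, *Fzd3* and *Fzd7* showed log2 differences of −0.08, −0.61 and −0.67 (adjusted p = 0.959, 0.726 and 0.813), the ligand gene *Wnt9a* of 0.24 (adjusted p = 0.944), and the direction of *Fzd1* and *Wnt9a* turned under several alternatives. *Fzd2* had a mean below 10 and was not tested. The ligand genes *Wnt7a* and *Wnt5b* showed log2 differences of −1.17 and 1.70 (adjusted p = 0.349 and 0.392).

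**Figure D3:**
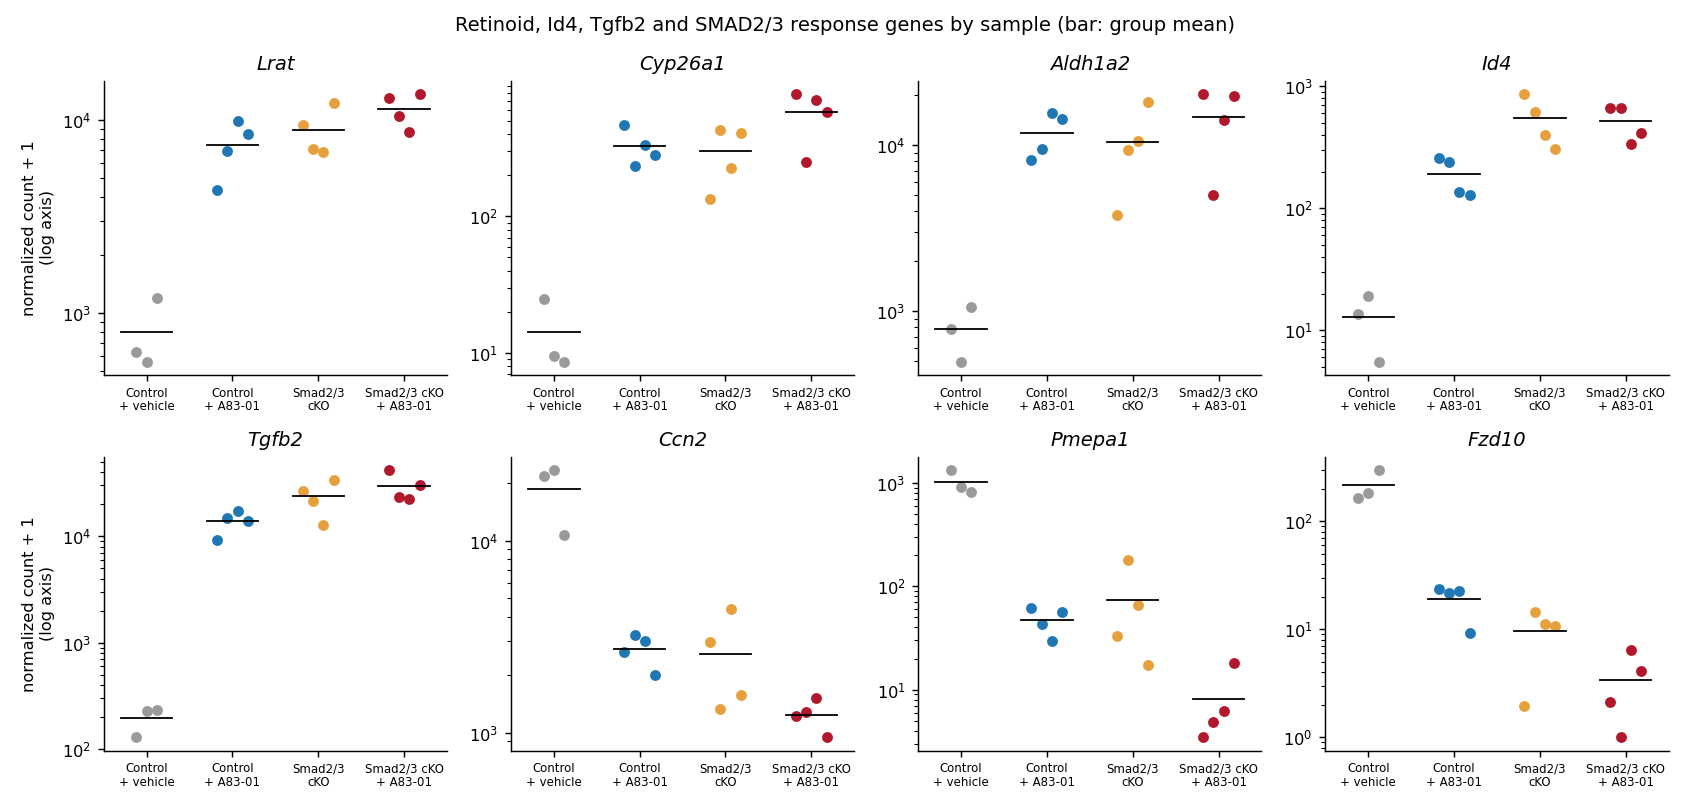
Normalized counts plus 1 on a log axis of *Lrat*, *Cyp26a1*, *Aldh1a2*, *Id4*, *Tgfb2*, *Ccn2*, *Pmepa1* and *Fzd10* in every sample of the 4 groups, with bars at the group means. Control + vehicle stands apart from the 3 other groups in all 8 genes. Between the A83-01 groups, *Id4*, *Tgfb2*, *Ccn2*, *Pmepa1* and *Fzd10* do not overlap and *Lrat*, *Cyp26a1* and *Aldh1a2* do, and none of the 8 passed the threshold there.

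Genes of hypoxia and glycolysis mostly had positive differences. Of 29 tested, 26 had a positive log2 fold change and none was called. The median was 0.48 (0.16 without the drug), beside 0.01 over all genes. The groups did not overlap in 5 with *Smad2/3* cKO higher and in 1 with it lower, beside 3.38% and 2.73% of all genes tested. *Aldoc*, a glycolytic aldolase, had 494, 465, 543 and 523 against 737, 1535, 974 and 1279 (log2 fold change 1.11, adjusted p = 0.104). *Pfkfb3*, which makes an activator of glycolysis, had 731, 919, 850 and 844 against 1050, 1246, 1084 and 1276 (log2 fold change 0.48, adjusted p = 0.299). *Bnip3*, a hypoxia-induced mitochondrial protein, had 419, 756, 1794 and 911 against 2656, 2163, 1613 and 6571 (log2 fold change 1.72, adjusted p = 0.272). By library, the median deviation of the list was largest in *Smad2/3* cKO + A83-01 replicate 4 (0.64) and lowest in control replicate 2 (−0.53), and the 2 genotypes were separate by a narrow margin, with 0.01 in control replicate 3 and 0.07 in *Smad2/3* cKO replicate 3.

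Interferon-stimulated genes separated libraries rather than genotypes. All but 1 of the 39 tested had a negative log2 fold change, with a median of −0.54, and none was called. The median deviation of the list was 1.20 and 0.93 in control + A83-01 replicates 1 and 2 and 1.26 in *Smad2/3* cKO + A83-01 replicate 2, and it lay between −0.83 and −0.51 in the other 5. Against control replicates 3 and 4 alone, 30 of the 39 differences were positive and their median was 0.28, so the direction of this list rests on control replicates 1 and 2. *Oas3*, an antiviral enzyme, had 345, 374, 107 and 42.0 in the controls and 19.0, 161, 28.3 and 18.0 in the *Smad2/3* cKO samples (log2 fold change −2.10, adjusted p = 0.475). *Oasl1*, another member of that enzyme family, had a log2 fold change of −1.63 (adjusted p = 0.365), and *Ifi44l* was the member with a positive one (2.48, adjusted p = 0.533), from values of 0, 0, 21.8 and 8.48 against 12.1, 70.8, 15.7 and 12.3. The list of 31 chemokine and inflammatory genes held the called gene *Nlrp6*, and its median deviations were highest in control replicates 1 and 2 (1.03 and 0.72). Its median log2 fold change was −0.23 with all controls and 0.52 with replicates 3 and 4 alone. *Cxcl14* and *Il33*, an epithelial chemokine and an alarmin, showed log2 differences of 0.64 and −0.67 (adjusted p = 0.373 and 0.38).

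Uterine epithelial programs were measured by further lists, and no member of any of them was called. Of 27 gland and receptivity genes the median log2 fold change was 0.19. *Prss29*, an implantation serine protease of the glands, had 16.3, 123, 157 and 322 against 898, 7875, 3945 and 344 (log2 fold change 4.11, adjusted p = 0.22), and *Alox15*, a lipoxygenase, had 316, 218, 600 and 770 against 1262, 1346, 8068 and 1513 (log2 fold change 2.33, adjusted p = 0.22). Of 25 genes for steroid receptors and hormone-responsive proteins the median was 0.01, and *Greb1*, an estrogen-responsive coactivator, had 499, 742, 703 and 574 against 1171, 1290, 1403 and 933 (log2 fold change 0.93, adjusted p = 0.104). *Hsd17b11*, a steroid dehydrogenase, had a log2 fold change of 0.60 (adjusted p = 0.429). Of 12 mucin and secretory genes the median was −0.06, and *Gcnt3*, which branches mucin glycans, had 752, 568, 983 and 583 against 230, 374, 379 and 304 (log2 fold change −1.15, adjusted p = 0.113). *Nptx1*, a secreted pentraxin, had a log2 fold change of 1.84 with A83-01 (adjusted p = 0.235) and a difference from the effect with vehicle of −6.76 (adjusted p = 0.00138). Its effect with A83-01 was called with the number series as covariate, which compares with control replicates 1 and 2 alone (log2 fold change 2.87, adjusted p = 0.000528, limma). Against control replicates 3 and 4 alone the log2 fold change was 0.82.

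Structural genes of the epithelium gave medians near or below 0. Among 22 keratin and squamous or basal genes the median was −0.30. *Krt20*, a keratin of differentiated epithelia, had 1024, 929, 1891 and 1886 against 174, 386, 870 and 547 (log2 fold change −1.68, adjusted p = 0.235), *Krt19* had a log2 fold change of −0.95 (adjusted p = 0.407), and *Krt6b* of 0.84 (adjusted p = 0.433) with a difference from the effect with vehicle of −3.52 (adjusted p = 0.00157). Among 25 junction genes (median −0.03), 2 had groups that did not overlap with *Smad2/3* cKO higher and 1 with it lower, beside 3.38% and 2.73% of all genes tested. They were the claudin genes *Cldn10* and *Cldn8*, with log2 differences of 0.80 and 1.38 (adjusted p = 0.122 and 0.149), and *Cldn6* (−1.70, adjusted p = 0.408), whose difference was −0.98 without *Smad2/3* cKO + A83-01 replicate 1. Among 29 matrix and integrin genes (median 0.00), *Lamb2*, *Itga2* and *Col3a1* showed log2 differences of 0.68, −1.36 and 3.29 (adjusted p = 0.444, 0.46 and 0.424). *Col3a1*, a stromal collagen, was at 0, 0, 2.09 and 0 in the controls and at 41.7, 0, 19.5 and 31.2 in the *Smad2/3* cKO samples.

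Of the 44 S phase and mitosis genes tested none was called, and 20 had a positive and 24 a negative log2 fold change (median −0.02, lowest −0.57, highest 0.70). The groups did not overlap in 1 of them, beside 6.12% of all genes tested. This was *Rrm1*, a ribonucleotide reductase subunit, which had 3080, 3019, 3362 and 3316 against 4116, 4472, 4469 and 3439 (log2 fold change 0.36, adjusted p = 0.405). Its partner *Rrm2* had a log2 fold change of 0.43 (adjusted p = 0.578) and *Hmgb2*, a chromatin protein, of −0.57 (adjusted p = 0.407). Among 26 cell cycle inhibitors and p53 targets (median −0.15), *Rbl2*, a retinoblastoma relative, had 520, 896, 1068 and 833 against 2369, 1282, 1786 and 1589 (log2 fold change 1.09, adjusted p = 0.158), while *Bax* and *Cdkn2b* had −0.62 and −0.71 (adjusted p = 0.354 and 0.373). Of 31 EGF family and MAPK feedback genes (median −0.15), the ligand gene *Btc* had a log2 fold change of −0.84, *Fos* of −0.85 and the FGF receptor gene *Fgfr2* of 0.60 (adjusted p = 0.338, 0.38 and 0.445).

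The remaining lists gave no call. Of 12 Notch genes (median 0.22), the ligand gene *Jag2* had 5.54, 6.68, 10.8 and 8.32 against 66.8, 15.6, 90.6 and 43.6 (log2 fold change 2.42, adjusted p = 0.173), and *Dll4* had a log2 fold change of −0.92 (adjusted p = 0.34). Of 26 cholesterol synthesis genes (median 0.09), *Srebf1*, a transcription factor of lipid synthesis, had 2673, 2798, 2040 and 2422 against 3793, 4180, 3222 and 3202 (log2 fold change 0.54, adjusted p = 0.262), and *Hsd17b7*, an enzyme of the same pathway, had a log2 fold change of −0.50 (adjusted p = 0.615). Of 32 tumor-linked genes the median was −0.08, and *Sox9*, a progenitor transcription factor, had a log2 fold change of 0.85 (adjusted p = 0.403). Of 11 motile cilia genes the median was −0.16, and *Tekt4*, *Tppp3* and *Cfap43* were low and had adjusted p of 0.572, 0.595 and 0.634.

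With control + A83-01 replicates 3 and 4 alone, no list had a member past an adjusted p below 0.01, and the median over all genes was 0.00. The list of SMAD2/3 response genes had a median of −0.25, hypoxia and glycolysis genes of 0.36 (26 of 29 positive), BMP target genes of 0.19, retinoid genes of 0.10 and WNT genes of 0.06. The lists of mucin and secretory genes (−0.06 with all controls and 0.19 with these alone) and of steroid receptors and hormone-responsive genes (0.01 and 0.25, with 22 of 25 positive) also moved, as did cholesterol synthesis genes (0.09 and 0.24), keratin genes (−0.30 and −0.42), matrix and integrin genes (0.00 and −0.14) and cell cycle inhibitors (−0.15 and −0.02). Of 83 named genes, 80 had the same sign with either set of controls. Among those whose fold change moved by more than 1.5 times, the log2 fold change with replicates 3 and 4 alone was 0.82 for *Nptx1*, 2.97 for *Prss29*, 1.65 for *Alox15*, 1.13 for *Bnip3*, 3.24 for *Aldh1a1*, 0.91 for *Wnt9a* and −1.28 for *Fzd7*. It was −0.89 for *Oas3*, 0.54 for *Ifi44l*, 0.55 for *Tekt4* and 0.18 for *Ltf*.

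**Figure D4:**
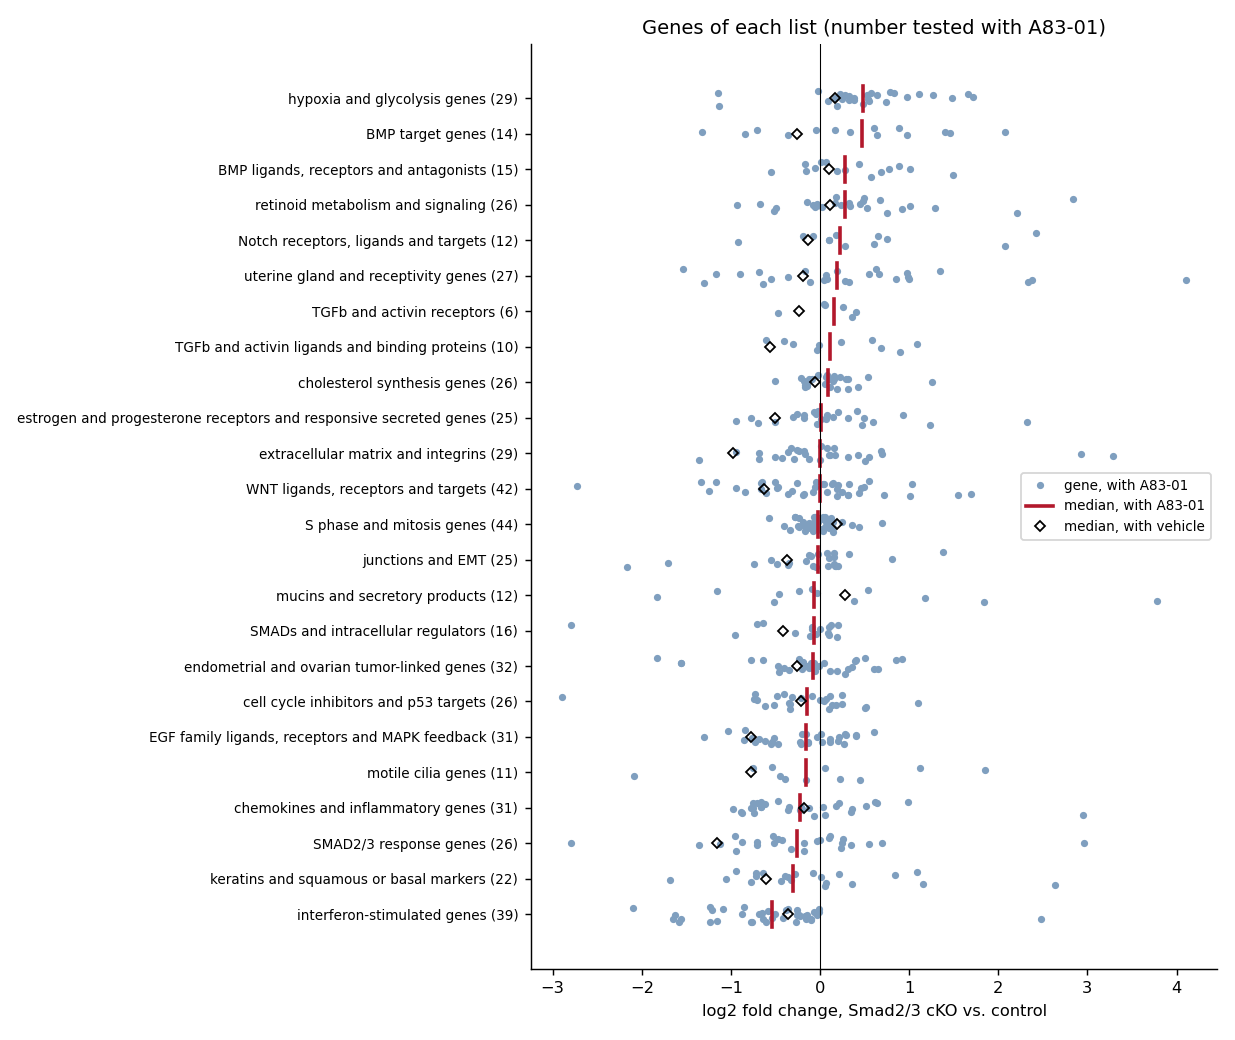
Log2 fold change of *Smad2/3* cKO against control with A83-01 for every tested gene of each list (points), the median with A83-01 (red bar) and the median with vehicle (diamond), with the number tested in parentheses. Medians with A83-01 run from −0.54 (interferon-stimulated genes, 0.28 with control replicates 3 and 4 alone) to 0.48 (hypoxia and glycolysis genes), and the SMAD2/3 response list has a median of −0.26 with A83-01 and −1.16 with vehicle.

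The genotype effect was set beside the same effect without the drug for all genes. The genes called without A83-01 were taken for passing the test there, a choice that raises the size of their effect in that comparison, so the medians with and without it are a description and no test of a smaller effect. The 536 genes that were higher without A83-01 had a median log2 fold change of 1.59 there and of 0.48 with A83-01, where 267 of them (49.8%) lay past 1.4-fold, beside 12.1% of all genes tested. Of the 434 lower genes, 389 were tested with A83-01, their median went from −1.70 without the drug to −0.46 with it, and 184 (47.3%) lay past the threshold for a fall, beside 8.74% of all genes. No library entered both comparisons, but some mice did, as given above.

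The difference between the 2 effects was tested directly, and 68 genes passed (0.527% of those tested), with a negative difference in 58 and a positive difference in 10. All 68 were called without the drug, and *Ncald* was the only one of them called with it. In 58 of the 536 higher genes and in 10 of the 389 lower genes tested with A83-01 the effect passed as smaller there, and in none as larger. This fit treated the libraries as independent although 4 of 11 mice gave libraries both with and without the drug, and with the mouse as a random block, added after seeing the data, 173 genes passed (128 negative and 45 positive), including all 68. Besides *Tshr*, *Tgfb2*, *Lrat*, *Id4*, *Cyp17a1*, *Krt6b* and *Nptx1*, they included *Fn1* (fibronectin, a matrix protein), chosen after its values were seen, with 1884 to 5624 in control + vehicle and 4.64 to 21.2 in both A83-01 groups (log2 fold change with A83-01 0.55, adjusted p = 0.84). For *Otop1* and *Nlrp6*, by contrast, control + A83-01 overlapped control + vehicle, and the differences between the genotype effects were those given above.

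**Figure D5:**
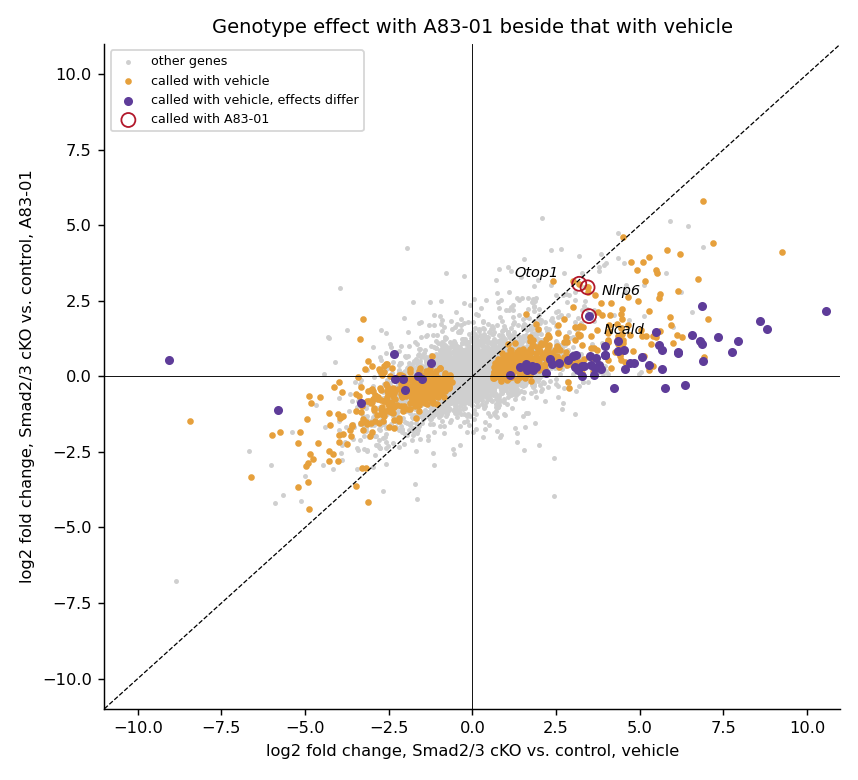
Each gene's log2 fold change of *Smad2/3* cKO against control with vehicle (x axis) and with A83-01 (y axis), for genes tested in both. Genes called with vehicle are orange, those of them whose effects differ are purple (68 genes), genes called with A83-01 are circled (3), and the dashed line marks equal effects. The purple genes have a smaller effect on the y axis than on the x axis, and *Otop1* and *Nlrp6* lie near the dashed line.

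Markers were used to check that the libraries were epithelial. The 12 epithelial markers were all measured, and *Krt7* was the most abundant at a mean of 73004. Their summed level was 185824 to 305293 in control + A83-01 and 148753 to 218772 in *Smad2/3* cKO + A83-01, where 9 had a lower and 3 a higher mean. Stromal markers summed to 23.9 to 188 in control + A83-01 and 10.5 to 587 in *Smad2/3* cKO + A83-01, and of the 9 in the matrix 6 had a higher and 3 a lower mean in *Smad2/3* cKO. The most abundant was *Col6a3*, a collagen, with 27.2, 15.1, 163 and 19.1 against 71.5, 3.97, 48.6 and 544, so the highest sum came from 1 library. *Dcn* had means of 0.864 and 14.6, *Col1a1* was listed at 0 in all 4 controls and had a mean of 7.24 in *Smad2/3* cKO, and *Vim* had means of 3.36 and 0. *Foxj1* of ciliated cells had 0.895 and 0, and the endothelial gene *Pecam1* 0 and 1.81. Leukocyte markers summed to 10115 to 49311, nearly all from *Cd14* and *Cd68*, while *Ptprc* had means of 168 and 265 and *Tyrobp* was at 0 in all 8. Of the glandular markers, *Sox9* was the most abundant at a mean of 1885, and all 6 in the matrix had a higher mean in *Smad2/3* cKO. Their sum was 1230 to 2290 in control + A83-01 and 2440 to 10321 in *Smad2/3* cKO + A83-01, most of which came from *Prss29* and *Sox9*. *Foxa2*, the defining gland factor, had means of 187 and 192. The mesothelial list was almost entirely *Msln*, which is also found on epithelial tumors, with 9830, 9723, 17016 and 15420 against 1580, 5351, 6590 and 6000 (log2 fold change −1.56, adjusted p = 0.237). All 3 mesothelial markers in the matrix had a lower mean in *Smad2/3* cKO. Smooth muscle markers summed to 2089 to 2805 and 1503 to 2149 in the 2 groups, nearly all *Smtn*, endothelial markers to 95.8 to 224 and 101 to 329, ciliated cell markers to 39.2 to 110 and 26.8 to 88.9, and squamous or basal markers to 7674 to 25798 and 3912 to 13706, led by *Sprr1a*. In bulk RNA fewer cells of a type and less RNA per cell cannot be told apart, and the part of cell type shares in the results was not tested.

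The Cre allele lies in *Ltf* on chromosome 9, and *Smad3* is on the same chromosome. Neighboring genes were therefore counted, with gene starts from GENCODE on GRCm38. Within 10 Mb of *Ltf* 173 genes were tested, none was called and the groups did not overlap in 5.78%. Within 10 Mb of *Smad3* 158 genes were tested, none was called and the groups did not overlap in 10.1%, beside 6.12% over all genes. *Hexa* near *Smad3* and *Spink8* near *Ltf* were the genes in these windows with an adjusted p below 0.1.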

How the data were processed

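RNA from endometrial epithelial organoids, each sample from a different mouse within its group, was sequenced. According to the submitters' processing notes the reads were quantified with Salmon 1.4.0 on GRCm39 and processed with DESeq2 1.32.0. The deposited values are a signal in the sense of normalized estimated counts per gene, which the authors scaled between samples, so they are no longer raw counts and no count model was applied here. All columns of per-sample values were mapped to samples (0 not used). Reads per library were estimated from the spacing of low values.

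Genes with a mean of at least 10 over the samples compared were transformed to log2(value + 1) and tested with limma 3.58.1 (trend, R 4.3.3), so fold changes are on the log2(value + 1) scale and understate changes of low genes. Following the study's methods, calls required a change of more than 1.4-fold in either direction together with p under 0.01 after Benjamini-Hochberg adjustment. The A83-01 and vehicle comparisons were fitted on their own samples, and the difference between the genotype effects on all 15 samples. The test code was first run on simulated data with known changes.

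Genes named were *Smad2*, *Smad3*, *Ltf*, the genes the study names for its RNA-seq, the 12 genes with the largest change in each direction among those called with groups that did not overlap and a mean of at least 50 in the higher group (filled to an adjusted p below 0.05), the 5 called genes of highest mean, up to 3 members of each list by p, and the cell type markers. The comparison and the lists were chosen with earlier results of these data known. The alternatives were other pseudocounts (0.1 and 10), no filter or a mean of at least 50, median ratio or quantile scaling, no trend, sample weights, a replicate block, all samples in the fit, the mouse number series, other thresholds and leaving out each library. Those at an adjusted p below 0.1, with controls numbered 390 or above only (control + A83-01 replicates 3 and 4) and with the mouse as a random block were added after seeing the data. Promoter windows came from RefSeq (GRCm38.p6), another build than that of the values, and were matched by gene symbol. A few named genes are not reported here.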

Additional observations from a re-analysis of the deposited data

Results flagged for a closer look

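Single libraries stood far from the 3 others of their group (Dixon's test on log2 values, critical value 0.829 for 4 samples) in 12 of 170 groups tested over 85 named genes, where chance gives about 1 in 20 groups. In *Smad2/3* cKO + A83-01, replicate 2 had 1211 normalized counts of *Smad2* (others 804 to 854), 797 of *Smad3* (others 1648 to 1689), 113 of *Bambi* (others 89.8 to 91.5) and 70.8 of *Ifi44l* (others 12.1 to 15.7). Replicate 1 of that group had 1580 of *Msln* (others 5351 to 6590) and 9276 of *Nptx1* (others 6032 to 6305), and replicate 3 had 8068 of *Alox15* (others 1262 to 1513). In control + A83-01, replicate 3 had 36.7 of *Chrd* (others 20.9 to 22.2) and 2.09 of *Col3a1* (others 0). With the others all at 0 any value above 0 is flagged, so the *Col3a1* flag, counted among the 12, was fixed in advance. Replicate 4 of that group had 8.25 of *Fzd10* (others 20.5 to 22.4) and 865 of *Hsd17b7* (others 1418 to 1480), and replicate 2 had 91.6 of *Hey1* (others 54.8 to 58.9).

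The genotype effect differed between A83-01 and vehicle in 11 of the named genes at an adjusted p below 0.05 (limma). It was more negative with A83-01, on the log2 scale, by −3.43 in *Aldh1a2* (adjusted p = 0.0217), −4.54 in *Cyp17a1* (0.00403), −3.68 in *Cyp26a1* (0.0113), −4.02 in *Id4* (0.00328), −3.52 in *Krt6b* (0.00157), −2.85 in *Lrat* (0.0025), −1.49 in *Ncald* (0.00952), −6.76 in *Nptx1* (0.00138), −1.53 in *Rrm2* (0.0256) and −5.77 in *Tgfb2* (9.81e-06). In *Cxcl14* the difference was 1.67 (adjusted p = 0.0292). Its genotype effect was 0.64 with A83-01 and −1.04 with vehicle.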

How the results depend on the processing

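The count of 3 genes called with A83-01 was 0 without a filter on low values, 1 without the trend, 0 with the replicate block, 5 (4 higher and 1 lower, sharing 2 with the 3) with all 15 samples in the fit, 72 with the number series as covariate, 39 with mice numbered below 390 only and 0 with controls numbered 390 or above only. At an adjusted p below 0.1 it was 62. It was 0 to 4 when each library was left out. Other pseudocounts, a mean of at least 50, other scalings, sample weights, an adjusted p below 0.05 and other fold thresholds gave 2 to 4. The 970 genes called without the drug became 452 without the trend, 211 with the replicate block, 2410 at an adjusted p below 0.05 and 280 to 992 when each library was left out. The 68 genes whose effects differed became 119 with sample weights, 183 at an adjusted p below 0.05 and 37 to 75 when each library was left out, 62 with the replicate block and 173 with the mouse as a random block. The cause of these shifts was not tested. With the same replicate number the deviations of control + A83-01 and *Smad2/3* cKO + A83-01 had correlations of −0.17, −0.12, 0.07 and 0.13, so the numbers do not pair the samples.

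Among 85 named genes, 6 turned their direction under an alternative, none of them past the threshold. Named genes called only under an alternative were *Nptx1* with the number series as covariate (log2 fold change 2.87, adjusted p = 0.000528) and with mice numbered below 390 only, *Hey1* with all 15 samples in the fit (adjusted p = 0.00848), and *Lpo* under 5 settings. At an adjusted p below 0.1 they also included *Ccn2*, *Cyp17a1* and *Wfdc18*. With the number series as covariate, and with mice numbered below 390 only, the log2 fold change was −1.40 for *Aldh1a1*, 0.13 for *Fzd1* and −0.43 for *Wnt9a*. Both settings compare with control replicates 1 and 2 alone and so give the same fold changes. With controls numbered 390 or above only it was −0.20 for *Aldh1a2*, 0.18 for *Ltf* and −0.20 for *Smad3*. When each library was left out it ran from −0.19 to 0.39 for *Smad3*, −0.35 to 0.12 for *Fzd1*, −0.11 to 0.72 for *Wnt9a* and −0.034 to 0.64 for *Aldh1a2*. Leaving out 1 library moved the fold change by more than 1.5 times in 11 of the 85, none of them called (*Adh1*, *Aldh1a1*, *Alox15*, *Cfap43*, *Cldn6*, *Col3a1*, *Ifi44l*, *Oas3*, *Prss29*, *Tekt4* and *Wnt5b*). Depth was not unusual in any group except for *Smad2/3* cKO + A83-01 replicate 3, and values below about 10, such as those of *Fzd10* in the *Smad2/3* cKO + A83-01 samples, rest on few reads.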
